A study of Rattus norvegicus with 72 samples.

Results

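The comparison is between S1 proximal tubules microdissected from the left kidney 72 h after removal of the right kidney (nephrectomy) and S1 tubules dissected 72 h after sham surgery, in which the right renal pedicle was dissected and the kidney left in place. It was made on 7 of the 72 libraries of the series, nephrectomy libraries 1, 3 and 4 and sham libraries 1 to 4, chosen by their labels of segment, surgery and time. All 32545 genes of the deposited table were considered, and 17916 passed the filter on low counts. Nephrectomy library 2 was left out because only 8% of its uniquely placed reads fell in genes, and its values are given beside the results it bears on. All rats were adult male Sprague-Dawley animals, an outbred strain, on normal chow, and no genotype, drug or diet differed between the groups. The series also holds S1 tubules at 24 and 48 h, glomeruli (the filtering tufts) and whole left kidney, from the same 2 kinds of surgery. Nothing in the labels ties a library to a rat, so it is unknown whether replicates are separate animals, and the p-values reflect only the scatter among these libraries, technical scatter included.

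The S1 segment is the first stretch of the proximal tubule, where most filtered glucose, amino acids, bicarbonate and phosphate are taken back from the filtrate. Its cells also make glucose from lactate and glutamine, using phosphoenolpyruvate carboxykinase (Pck1), and they respond to glucocorticoids and parathyroid hormone. After the loss of a kidney the remaining one grows, and in the proximal tubule this growth is classically described as mostly enlargement of cells, with some cell division. The comparison asks which transcripts of S1 cells differ at a late point of that response.

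Reads counted in genes numbered from 13.12 to 87.37 M in the 3 nephrectomy libraries and from 19.7 to 76.01 M in the 4 sham libraries. Genes took 46.5 to 71.5% of uniquely placed reads in nephrectomy libraries and 35.8 to 77.4% in sham libraries, and the 37 mitochondrial genes took 52 to 70% and 41.3 to 72.3% of gene counts. Genes with at least 1 read numbered 16404 to 24243 in nephrectomy libraries and 15225 to 25999 in sham libraries. The fewest were in nephrectomy library 3 and sham library 2, although both were deep (77.62 and 74.41 M). Levels below are CPM, read counts scaled to a common library size and further adjusted by TMM, a normalization that sets most genes equal between libraries, and each set of values runs in the order of library numbers. Slc34a1, the sodium-phosphate cotransporter that marks early proximal tubule, had 3413, 3343 and 2624 CPM in nephrectomy libraries, against 3510, 3173, 4328 and 3031 CPM in sham libraries. Slc5a2, the glucose cotransporter SGLT2 and a marker of S1, had 111, 51.1 and 71.7 CPM in nephrectomy libraries, against 106, 62.2, 91.9 and 9.32 CPM in sham libraries. Both groups carried the labelled segment's markers, and sham library 4 was low for Slc5a2. Set on a common scale with glomeruli, Slc34a1 ran from 4832 to 8048 CPM in the 7 S1 libraries and from 6.07 to 30.4 CPM in 7 glomerulus libraries of 72 h. Nphs1, which encodes the podocyte protein nephrin, ran from 4.55 to 9.71 CPM in those S1 libraries and from 534 to 1946 CPM in the glomerulus libraries. The nephrectomy library left out had 676 CPM of Slc34a1, 4.00 CPM of Slc5a2 and 10.7 CPM of Nphs1.

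Sgk1 alone passed the test. It encodes serum and glucocorticoid regulated kinase 1, which raises the activity of epithelial sodium channels and other transporters. Sgk1 had 837, 1162 and 1547 CPM in nephrectomy libraries 1, 3 and 4, against 155, 75.7, 164 and 128 CPM in sham libraries 1 to 4. The lowest nephrectomy library lay far above the highest sham library. Its mean was 1182 ± 355 CPM after nephrectomy and 131 ± 39.8 CPM after sham surgery (SD, n = 3 and 4). Per length, on the authors' RPKM scale, Sgk1 averaged 456 after nephrectomy and 55.4 after sham surgery, while Slc34a1 averaged 1254 and 1509. Sgk1 rose by a log2 fold change of 3.18 ± 0.36 (SE), with an adjusted p of 0.000311 by edgeR's quasi-likelihood test with Benjamini-Hochberg adjustment over 17916 genes. This was 1 gene of those tested, or 0.00558%. At an unadjusted p under 0.05 there were 289 genes (1.61%), of which 171 were higher (0.954%) and 118 lower (0.659%) after nephrectomy. In the nephrectomy library left out, Sgk1 had 154 CPM, within the range of the sham libraries. With that library put back, the log2 fold change was 2.83 ± 0.64 and no gene passed (adjusted p of Sgk1 1.00). The left-out library also had 3.46 CPM of Plk3, 1.84 CPM of Per1 and 505 CPM of Pck1, genes described below. DESeq2 called 11 genes on the same 7 libraries, 8 higher and 3 lower, Sgk1 among them.

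**Figure D1:**
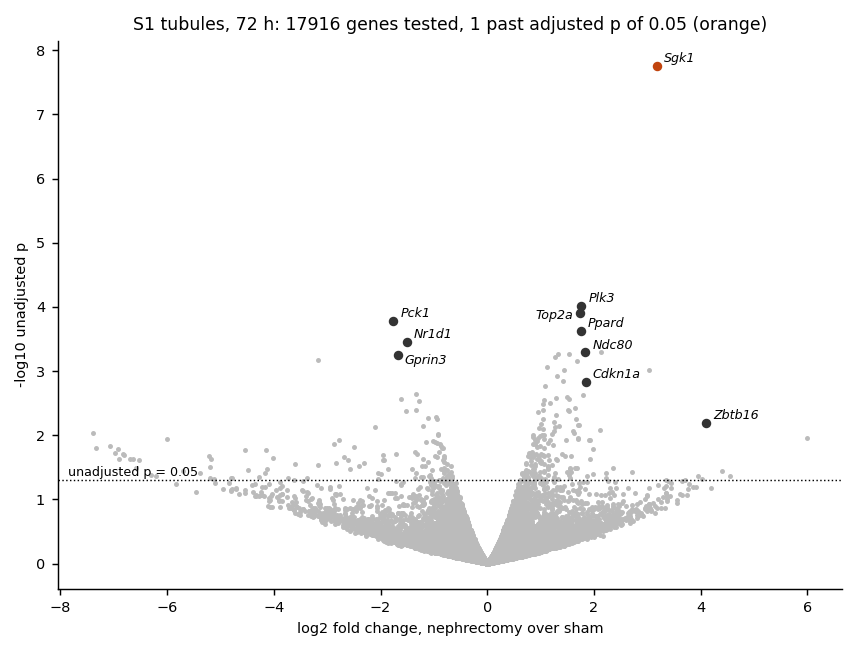
Each point is 1 of the 17916 genes tested, with the log2 fold change of nephrectomy over sham on the x axis and the -log10 of the unadjusted p on the y axis. Sgk1, in orange, is alone past an adjusted p of 0.05, the dotted line marks an unadjusted p of 0.05, and black points are named genes that did not pass.

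RefSeq (build GRCr8) gives Sgk1 3 start sites, and the window from 250 bases before to 50 bases after the start that lies furthest downstream is shown because Sgk1 is the gene that passed. It lies at chr1:24804782-24805081 on the minus strand and is printed 5′ to 3′ in the direction of transcription.
Sgk1: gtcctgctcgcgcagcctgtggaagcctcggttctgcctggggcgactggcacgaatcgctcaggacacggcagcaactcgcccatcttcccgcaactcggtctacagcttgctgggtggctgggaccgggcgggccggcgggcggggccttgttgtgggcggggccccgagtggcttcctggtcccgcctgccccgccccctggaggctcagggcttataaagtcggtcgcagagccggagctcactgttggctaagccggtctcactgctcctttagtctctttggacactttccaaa
This window held none of 5 motifs searched on both strands: CCAAT of NF-Y, the E-box CACGTG, the nuclear receptor letters AGGTCA, the cyclic AMP element TGACGTCA, and the palindromic glucocorticoid response element. Of 33469 windows of the same length, 37.5% held the first, 6.42% the second, 16.2% the third, 1.83% the fourth and 0.439% the last. The windows of the other 2 Sgk1 starts held none either, and bases outside these windows were not searched.

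Of the 8 named genes with the smallest p on the higher side, the other 7 did not pass (adjusted p from 0.73 to 0.88). Plk3, a polo-like kinase induced by stress and growth signals, had 12.3, 12.2 and 16.8 CPM in nephrectomy libraries, against 5.53, 2.62, 4.41 and 3.58 CPM in sham libraries. Ppard, a nuclear receptor for fatty acids, had 56.4, 28.5 and 19.9 CPM in nephrectomy libraries, against 17.4, 9.42, 9.36 and 5.22 CPM in sham libraries. The groups did not overlap for either gene, and the log2 fold changes were 1.76 ± 0.37 for Plk3 and 1.75 ± 0.40 for Ppard. Of the rest, Top2a, the kinetochore gene Ndc80 and the tubulin gene Tubb5 belong to cell division, with log2 fold changes of 1.75 ± 0.37, 1.84 ± 0.45 and 1.32 ± 0.32. Agfg2 and Csmd1 had log2 fold changes of 1.54 ± 0.38 and 1.26 ± 0.31. In all 7 of these genes every nephrectomy library lay above every sham library, as it did for 365 of the genes tested (2.04%).

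On the lower side no gene passed edgeR's test, and 118 had an unadjusted p under 0.05. DESeq2 called 3 genes there, Pck1, Nr1d1 and Gprin3. The smallest p on this side was that of Pck1, the enzyme that commits carbon to glucose synthesis in proximal tubule. Pck1 had 814, 1072 and 1321 CPM in nephrectomy libraries, against 2428, 4077, 4989 and 2967 CPM in sham libraries. Its groups did not overlap, and the log2 fold change was -1.76 ± 0.38 (adjusted p 0.73). Nr1d1, Gprin3, Acot12 (a hydrolase of acetyl-CoA) and Sult1a1 (a sulfotransferase) also lay below sham in every nephrectomy library, as did 262 of the genes tested (1.46%). Their log2 fold changes were -1.51 ± 0.36, -1.68 ± 0.41, -1.33 ± 0.38 and -1.28 ± 0.38. Groups overlapped for Cyp4a2, a fatty acid hydroxylase, and Phlda1, whose log2 fold changes were -1.33 ± 0.41 and -1.52 ± 0.48.

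**Figure D2:**
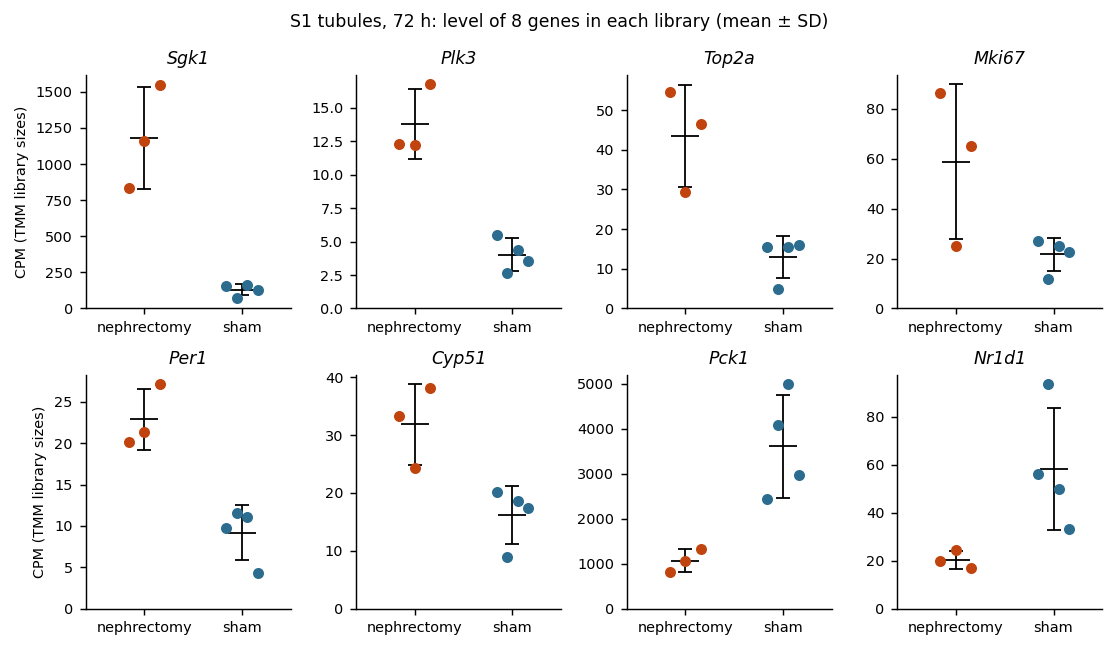
Each point is 1 S1 library of 72 h, with the CPM of 8 genes on the y axis, nephrectomy libraries (orange, n = 3) left of sham libraries (blue, n = 4), and bars for the mean ± SD. Groups overlap for Mki67 and for none of the other 7 genes, of which Sgk1 alone passed the test.

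Genes of cell division lay mostly above sham without any of them passing the test. Of 44 genes of DNA replication and mitosis tested, 32 had a log2 fold change above 0 and the median was 0.64, against -0.00 over all genes tested. An unadjusted p under 0.05 was reached by 15 members, all higher, where 0.954% of all genes reached it on that side. Every nephrectomy library lay above every sham library for 7 members, against 2.04% of all genes tested. Top2a, topoisomerase II alpha of dividing cells, had 54.6, 29.3 and 46.5 CPM in nephrectomy libraries, against 15.4, 4.96, 15.6 and 16.004 CPM in sham libraries. Its groups did not overlap, and sham library 2 was the lowest. Mki67, the proliferation antigen Ki-67, had 86.2, 25.2 and 65.1 CPM in nephrectomy libraries, against 26.9, 11.999, 25.1 and 22.6 CPM in sham libraries. Nephrectomy library 3 fell within the sham range, and the log2 fold change was 1.44 ± 0.38. The spindle motor genes Kif20a and Kif23 had log2 fold changes of 1.49 ± 0.43 and 1.52 ± 0.47, with no overlap of groups. Cenpf (kinetochore) and Tk1 (thymidine kinase), named after their values were seen, had 1.53 ± 0.47 and 1.28 ± 0.41, also with no overlap. Summed over the list, the level was 596, 318 and 470 CPM in nephrectomy libraries, against 319, 228, 306 and 289.7 CPM in sham libraries, so nephrectomy library 3 again lay within the sham range. The library left out had 48.1 CPM of Top2a and 82.9 CPM of Mki67, both above every sham library.

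Among 14 genes of D cyclins and CDK inhibitors tested, the median log2 fold change was -0.12. Cdkn1a, the inhibitor p21, had 4.42, 8.68 and 12.9 CPM in nephrectomy libraries, against 3.99, 0.82, 1.97 and 2.81 CPM in sham libraries. The groups did not overlap, and the log2 fold change was 1.84 ± 0.50. Cdk4 and Cdkn1b (the inhibitor p27) also did not overlap, with 1.02 ± 0.40 and 0.56 ± 0.36. Over all genes tested, 2.04% lay above sham in this way. For Cdk4 the margin was narrow, as the lowest nephrectomy library had 26.48 CPM and the highest sham library 26.37 CPM. Sham library 4 was lowest for Cdk4, at 5.28 CPM. In whole kidney at 72 h Cdkn1b went the other way and passed the test, with a log2 fold change of -0.39. Ccnd1, cyclin D1, had 110.0, 190.3 and 149 CPM in nephrectomy libraries, against 183, 190.3, 152 and 141 CPM in sham libraries, and Myc had 3.86, 1.60 and 5.90 CPM, against 5.06, 2.72, 4.83 and 4.75 CPM. Groups overlapped for both. The linker histone genes Hist1h1d and Hist1h1c had log2 fold changes of 1.05 ± 0.32 and 0.87 ± 0.41. Reads of near-identical histone copies may be left uncounted or misplaced, so these values are uncertain.

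The promoter windows of Top2a and Mki67 are shown because both genes belong to the group above and their windows are dense in CCAAT, a motif bound by the factor NF-Y in many genes of the cell cycle. Capitals mark CCAAT or, on the other strand, ATTGG. Top2a lies at chr10:84473044-84473343 and Mki67 at chr1:199952544-199952843, both on the minus strand of GRCr8 and both from RefSeq.
Top2a: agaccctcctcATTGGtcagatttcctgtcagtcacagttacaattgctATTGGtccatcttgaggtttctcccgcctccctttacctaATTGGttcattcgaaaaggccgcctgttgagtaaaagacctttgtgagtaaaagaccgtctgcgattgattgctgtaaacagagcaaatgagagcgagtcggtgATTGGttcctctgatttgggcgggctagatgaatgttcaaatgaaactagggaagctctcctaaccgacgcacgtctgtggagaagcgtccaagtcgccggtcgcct
Mki67: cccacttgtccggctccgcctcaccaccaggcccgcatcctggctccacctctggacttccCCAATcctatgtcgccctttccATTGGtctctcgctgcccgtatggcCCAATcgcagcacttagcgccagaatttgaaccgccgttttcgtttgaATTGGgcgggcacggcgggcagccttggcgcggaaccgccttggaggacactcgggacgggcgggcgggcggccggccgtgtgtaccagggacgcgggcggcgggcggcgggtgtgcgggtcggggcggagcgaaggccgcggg
Each window held 4 such matches. Of the 44 genes in the list, 36 had a window, and 27 of these (75%) held at least 1 match, against 39.6% of 27457 genes with a window. A match is a description of these letters and was not tested as a binding site.

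Clock genes split between the groups, with 3 members above and 4 below sham in every library. Over all genes tested, 2.04% lay above and 1.46% below in this way. Of 19 clock genes tested, 8 had an unadjusted p under 0.05, 4 on each side, where 0.954% of all genes reached it on the higher and 0.659% on the lower side, and none passed. Nr1d1, the repressor REV-ERB alpha, had 19.7, 24.5 and 17.0 CPM in nephrectomy libraries, against 56.1, 93.6, 49.8 and 33.1 CPM in sham libraries. Arntl (BMAL1), the activator that REV-ERB alpha represses, had 12.1, 4.02 and 4.64 CPM in nephrectomy libraries, against 3.58, 1.94, 1.28 and 1.11 CPM in sham libraries. The 2 genes lay on opposite sides, with log2 fold changes of -1.51 ± 0.36 and 1.80 ± 0.52. Npas2, a partner of BMAL1, had 24.9, 10.6 and 10.6 CPM in nephrectomy libraries, against 8.01, 3.98, 4.38 and 6.57 CPM in sham libraries. Per1, a period gene that glucocorticoids also induce, had 20.2, 21.4 and 27.1 CPM in nephrectomy libraries, against 9.71, 11.6, 11.1 and 4.34 CPM in sham libraries. Neither overlapped, and the log2 fold changes were 1.43 ± 0.39 for Npas2 and 1.31 ± 0.35 for Per1. Further genes driven by the clock, named after their values were seen, were Dbp, Nr1d2 and Per3, at log2 fold changes of -1.21 ± 0.41, -1.12 ± 0.36 and -0.98 ± 0.36. Dbp and Per3 did not overlap, whereas Nr1d2 did. The labels give no clock hour of surgery or dissection.

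A promoter window of Nr1d1 is shown because it holds CACGTG (in capitals), the E-box letters that BMAL1 and its partners bind. RefSeq places it at chr10:84229405-84229704 on the minus strand of GRCr8.
Nr1d1: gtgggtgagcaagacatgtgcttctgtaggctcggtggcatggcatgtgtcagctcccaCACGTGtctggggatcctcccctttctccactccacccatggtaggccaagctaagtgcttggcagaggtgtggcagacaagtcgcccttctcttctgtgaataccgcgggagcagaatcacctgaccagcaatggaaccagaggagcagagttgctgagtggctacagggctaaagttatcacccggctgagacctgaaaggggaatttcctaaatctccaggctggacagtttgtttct
The window of the other Nr1d1 start held no CACGTG. Of 19 clock genes, 16 had a window and 5 of these (31.3%) held CACGTG, against 7.08% of 27457 genes.

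Targets of glucocorticoids and aldosterone did not lie on one side as a group. Of 22 tested, 12 had a log2 fold change above 0, the median was 0.06, and Sgk1 alone passed. The list also holds the receptor genes Nr3c1 and Nr3c2 and the enzyme gene Hsd11b1. Sgk1, Per1, Zbtb16 and Fkbp5 had an unadjusted p under 0.05 on the higher side, where 0.954% of all genes reached it. The same genes lay above every sham library, as did 2.04% of all genes. Sult1a1 reached that p on the lower side (0.659% of all genes) and lay below every sham library (1.46%). Zbtb16 (PLZF), a transcription factor strongly induced by glucocorticoids, had 2.18, 1.32 and 0.702 CPM in nephrectomy libraries, against 0.129, 0, 0.172 and 0 CPM in sham libraries. The groups did not overlap at these low levels, and the fitted log2 fold change was 4.09 ± 1.35, a value that depends on how the fit treats libraries at 0. Fkbp5, a chaperone of the glucocorticoid receptor named after its values were seen, had 0.86 ± 0.32 with no overlap. The summed level of the 22 genes was 1982, 2109 and 2350 CPM in nephrectomy libraries, against 1120, 1182, 966 and 871 CPM in sham libraries, and Sgk1 made up most of that difference.

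Lists of metabolic and transport genes had medians near that of all genes. Of 13 genes of glucose synthesis and fructose metabolism, the median log2 fold change was 0.02, and Pck1 was the 1 member with an unadjusted p under 0.05. Fatty acid oxidation genes had a median of -0.03 over 28 tested, amino acid and peptide transporters -0.10 over 21, and glucose, phosphate and ion transporters -0.10 over 29. The 10 S1 markers had a median of -0.15 and none reached an unadjusted p under 0.05. Lrp2, the endocytic receptor megalin, had 4910, 2393 and 2338 CPM in nephrectomy libraries, against 2562, 3596, 2007 and 3227 CPM in sham libraries. Among 23 organic ion transporters only Slc22a6, the organic anion transporter OAT1, had no overlap. Over all genes tested, 2.04% lay above sham and 1.46% below in this way. Slc22a6 had 775, 1017 and 819.9 CPM in nephrectomy libraries, against 491, 529.6, 608 and 392 CPM in sham libraries. Its log2 fold change was 0.79 ± 0.31 (adjusted p 1.00). Slc13a1, the sulfate transporter, had 393, 244 and 187 CPM in nephrectomy libraries, against 302, 383, 189.9 and 208 CPM in sham libraries. Cyp2e1, a cytochrome P450 that metabolizes small solvents, had 499, 279 and 199.6 CPM in nephrectomy libraries, against 444, 1217, 254 and 216 CPM in sham libraries. Groups overlapped for both, and sham library 2 alone was high for Cyp2e1.

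Genes of cholesterol synthesis leaned to the side of nephrectomy. Of 28 tested, 25 had a log2 fold change above 0, the median was 0.44, and none passed. An unadjusted p under 0.05 was reached by 4, all higher, and in 5 every nephrectomy library lay above every sham library, where 0.954% and 2.04% of all genes tested did and 50% were above 0. Cyp51, lanosterol demethylase, had 33.2, 24.3 and 38.1 CPM in nephrectomy libraries, against 20.1, 8.94, 18.6 and 17.5 CPM in sham libraries. Log2 fold changes were 0.97 ± 0.33 for Cyp51, 0.93 ± 0.35 for Dhcr7 and 0.86 ± 0.35 for Srebf2, the transcription factor of the pathway. The list's summed level was 643, 512 and 586 CPM in nephrectomy libraries, against 446, 377, 458 and 382 CPM in sham libraries, with no overlap.

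For genes of the unfolded protein response and ATF4, 23 of 29 tested had a log2 fold change above 0 and the median was 0.25, but 1 library carried the members with the smallest p. Sdf2l1, a partner of the chaperone BiP, had 4.75, 5.90 and 26.4 CPM in nephrectomy libraries, against 2.84, 4.74, 2.46 and 5.69 CPM in sham libraries. Creld2, Manf and Pdia4, which act in folding in the endoplasmic reticulum, had 30.8, 58.4 and 66.4 CPM in nephrectomy library 4 and at most 24.0 CPM in the other nephrectomy libraries, against at most 24.2 CPM in sham libraries. Nephrectomy library 4 was the shallowest (13.12 M), and its part in the list's median was not tested beyond leaving it out. Without it the median was 0.07, and the log2 fold changes of Creld2 and Pdia4 were -0.04 and -0.01. In whole kidney at 72 h nephrectomy library 4 had 34.0, 58.9, 89.6 and 194 CPM of Sdf2l1, Creld2, Manf and Pdia4. Whole kidney nephrectomy libraries 1 to 3 had at most 7.96, 14.5, 22.6 and 66.1 CPM. Glomerulus nephrectomy library 4, in the fit of both segments, had 64.4 and 75.8 CPM of Sdf2l1 and Creld2. Glomerulus nephrectomy libraries 1 and 2 had at most 8.91 and 22.7 CPM. Pdia4 set library 4 less apart in glomeruli, with 53.1, 118 and 162 CPM in nephrectomy libraries 1, 2 and 4. Glomerulus sham library 4 had 109 CPM of it. The labels do not say whether libraries numbered 4 share a rat.

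**Figure D3:**
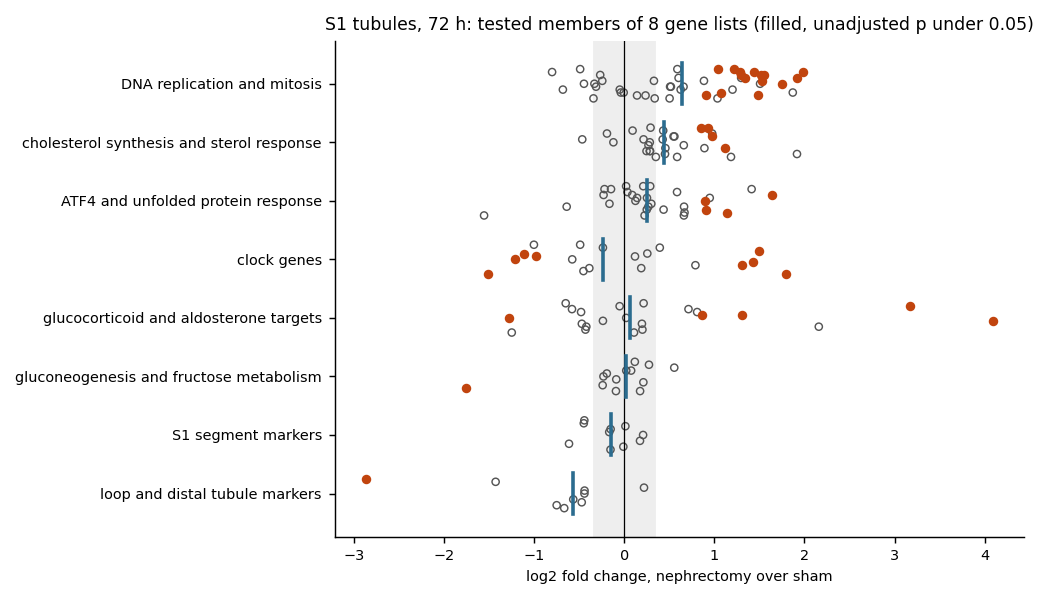
Each circle is a tested member of 1 of 8 gene lists, placed by its log2 fold change of nephrectomy over sham in S1 tubules at 72 h, filled where the unadjusted p was under 0.05. Blue bars are list medians and the grey band spans the middle 50% of all genes tested, with the line at their median.

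Markers of tubular injury did not separate the groups. Of 23 tested, 11 had a log2 fold change above 0, and the median was -0.04. Havcr1 (KIM-1), a marker of injured proximal tubule, had 0.177, 0.798 and 5.62 CPM in nephrectomy libraries, against 0.657, 0, 1.33 and 1.11 CPM in sham libraries. Lcn2 (NGAL) was at most 1.55 CPM in any of the 7 libraries. Spp1 (osteopontin) had 37.8, 39.5 and 100.2 CPM in nephrectomy libraries, against 48.6, 26.4, 13.5 and 31.5 CPM in sham libraries, and Anxa1 lay below sham in every nephrectomy library at under 1 CPM. Of 33 genes of the IGF, EGF and HGF systems tested, 13 had a log2 fold change above 0, the median was -0.11, and none passed. Igf1 had 0.125, 3.49 and 2.88 CPM in nephrectomy libraries, against 1.29, 2.28, 3.87 and 0.586 CPM in sham libraries, and Egf was at most 2.11 CPM in any of the 7 libraries.

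Markers of the distal tubule, the collecting duct and red cells summed highest in sham library 1, as did mesangial and smooth muscle markers (77.9 CPM). Those of podocytes, endothelium and immune cells summed highest in nephrectomy library 3, at 56.8, 131 and 301 CPM. Sham libraries reached at most 54.1, 115 and 294 CPM of these. The immune sum was mostly Cd74, with 259 of the 301 CPM in nephrectomy library 3 and 245 of the 294 CPM in sham library 2. It therefore does not rank the libraries by immune cells. Loop and distal tubule markers, 10 genes of which 9 were tested, summed to 87.2 to 154 CPM in nephrectomy libraries and 92.3 to 214 CPM in sham libraries, with a median log2 fold change of -0.57. Cldn10 alone gave 120 of the 154 CPM in nephrectomy library 1. Slc12a3, the cotransporter of the distal convoluted tubule, had 0.532, 9.30 and 16.8 CPM in nephrectomy libraries, against 83.6, 2.30, 2.22 and 5.28 CPM in sham libraries. Kcnj1 (ROMK) had at most 0.492 CPM in nephrectomy libraries and 6.19 CPM in sham library 1. Collecting duct markers summed to 32.8 to 69.8 CPM in nephrectomy libraries and 37.4 to 117 CPM in sham libraries, and podocyte markers to 21.5 to 56.8 CPM and 33.5 to 54.1 CPM. Red cell markers, 6 genes, summed to 2.97 to 25.4 CPM in nephrectomy libraries and 9.98 to 35.3 CPM in sham libraries, most of it Slc4a1, which collecting duct cells also express, and the globin genes Hba1, Hba2, Hbb and Hbb-b1 were at 0 to 1.17 CPM. Late proximal (S3) markers summed to 512 to 1147 CPM in nephrectomy libraries and 657 to 1872 CPM in sham libraries. They were highest in sham library 2, where Cyp2e1 gave 1217 of the 1872 CPM. Single members differed in sham library 4, the library low for Slc5a2. It was highest for Slc7a13, Slco1a1 and Acsm3 (14.3, 2.87 and 174 CPM) and lowest for Slc16a9 and Atp11a (12.1 and 132 CPM). Slc5a1 was at 1.07 ± 0.39 and Aadat at -0.93 ± 0.35 on the log2 scale. In such bulk samples fewer cells of a type and less RNA per cell cannot be told apart, and the part of these markers in the gene differences was not tested.

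The 72 h comparison was then set against the earlier S1 groups, in a fit of 22 S1 libraries with separate sham groups at each time, which called 0, 1 and 1 genes at 24, 48 and 72 h (0, 0.00563 and 0.00563%). Between 72 h and 24 h no difference of the surgery effect passed (0 of 17759), by edgeR's quasi-likelihood test or by DESeq2, while 610 genes (3.43%) had an unadjusted p under 0.05. Between 72 h and 48 h 651 genes (3.67%) had one, and the effect differed past the threshold for 5 genes (0.0282%), each more positive at 72 h: Sgk1, Plk3, Zbtb16, Per1 and Sh3rf1, the last a scaffold of stress kinase signalling named because the count was small. Sgk1, on the CPM scale of this fit, had 830.5, 662, 844 and 1172 CPM in nephrectomy libraries 1 to 4 at 24 h, against 84.7, 274 and 188 CPM in sham libraries 1, 3 and 4. At 48 h it had 119, 117, 199 and 199 CPM in nephrectomy libraries, against 828, 371, 432 and 307 CPM in sham libraries. At 72 h it had 872, 1373 and 1649 CPM in nephrectomy libraries, against 163, 90.0, 171 and 144 CPM in sham libraries. So nephrectomy libraries lay above sham at 24 and 72 h and below sham at 48 h, without overlap at any of the times. The log2 fold changes were 2.27 ± 0.39 at 24 h, -1.61 ± 0.34 at 48 h and 3.19 ± 0.38 at 72 h, of which the last passed (adjusted p 0.0625, 0.19 and 7.12e-05). The difference between 72 h and 48 h was 4.80 ± 0.51 (adjusted p 7.83e-06).

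The other 4 genes also had positive effects at 24 and 72 h and negative ones at 48 h. Plk3 had log2 fold changes of 1.71 ± 0.34 at 24 h, -1.48 ± 0.30 at 48 h and 1.77 at 72 h, and Per1 had 1.37 ± 0.40, -2.11 ± 0.38 and 1.30. Their differences between 72 h and 48 h were 3.25 ± 0.44 and 3.41 ± 0.54 (adjusted p 0.000468 and 0.00322). Zbtb16 had log2 fold changes of 3.27 ± 0.92, -3.97 ± 0.84 and 4.07 ± 0.88 at the same times, and Sh3rf1 had 0.85 ± 0.28, -1.34 ± 0.26 and 1.04 ± 0.27. Their differences between 72 h and 48 h were 8.04 ± 1.21 (adjusted p 0.00237) and 2.38 ± 0.37 (0.00322). Zbtb16 had 0.139, 0.299, 0.0418 and 0.243 CPM in nephrectomy libraries at 48 h, against 4.72, 1.12, 4.90 and 1.28 CPM in sham libraries. The 48 h groups did not overlap for Sgk1, Per1, Zbtb16 and Sh3rf1, and overlapped for Plk3. A sham library of 24 h with glomerular markers (11.8% of unique reads in genes) and nephrectomy library 2 of 72 h were left out of this fit, and with both put back 1 of the 5 differences passed, that of Sgk1. Each of the 5 differences joins a positive effect at 72 h to a negative one at 48 h, where sham libraries were the higher group by mean. Whether the 48 h labels or the hour of dissection bear on the direction at 48 h was not tested, as the labels give no hour. The list of DNA replication and mitosis was not turned round at 48 h, with medians of 0.19 at 24 h and 0.79 at 48 h in this fit.

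**Figure D4:**
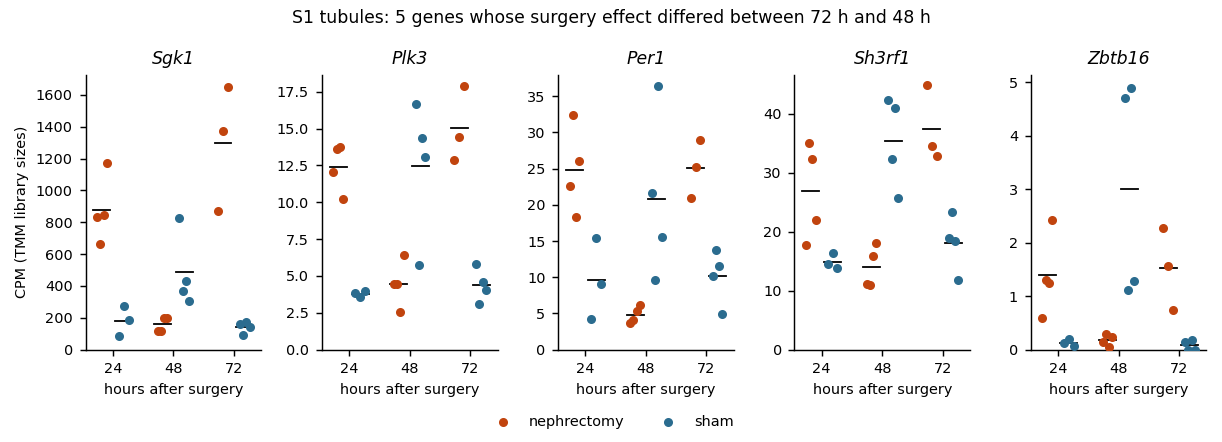
Each point is 1 S1 library, with CPM on the y axis and hours after surgery on the x axis, nephrectomy libraries (orange) left of sham libraries (blue) at each time, and black bars for group means. All 5 genes lie higher after nephrectomy at 24 and 72 h by group mean and lower at 48 h.

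Glomeruli dissected at 72 h gave no gene past the test of their own and none whose effect differed from that in S1 (0 of 22701 by edgeR's quasi-likelihood test, 559 or 2.46% at an unadjusted p under 0.05, and 2 by DESeq2). On the CPM scale of the fit of both segments, Sgk1 had 1749, 2239 and 2848 CPM in S1 nephrectomy libraries, against 304, 145, 305 and 239 CPM in S1 sham libraries. Glomerulus nephrectomy library 3 was left out, with 2.9% of its unique reads in genes, and putting it and S1 nephrectomy library 2 back also gave 0 genes. In glomeruli Sgk1 had 438, 518 and 621 CPM in nephrectomy libraries 1, 2 and 4, against 304, 276, 493 and 808 CPM in sham libraries. The glomerulus groups overlapped, and the log2 fold change there was 0.16 ± 0.43. The difference between S1 and glomeruli was 3.04 ± 0.62 for Sgk1 (adjusted p 0.879), so it did not pass. Without S1 nephrectomy library 4, 1 gene passed. For Zbtb16 the log2 fold change in glomeruli was 3.42 ± 0.71, and for Arntl and Npas2 it was 1.57 ± 0.51 and 1.60 ± 0.48, none past the threshold.

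Whole left kidney at 72 h, with 4 libraries in each group, another kit and its own count table, gave 281 genes past edgeR's test (1.88% of 14915), of which 200 were higher (1.34%) and 81 lower (0.543%). Sgk1 rose there by 1.35 ± 0.20 (adjusted p 0.0170), with 142, 125, 152 and 225 CPM in nephrectomy libraries, against 81.6, 49.9, 53.7 and 68.7 CPM in sham libraries. Top2a, Mki67, Per1, Arntl, Npas2, Cdkn1a, Cyp51, Dhcr7 and Zbtb16 also rose in whole kidney, by 1.43 ± 0.28, 1.37 ± 0.23, 1.24 ± 0.15, 1.20 ± 0.22, 1.14 ± 0.23, 1.29 ± 0.22, 0.86 ± 0.12, 0.55 ± 0.11 and 2.86 ± 0.32. Pck1 fell there by 1.29 and Nr1d1 by 1.07 on the log2 scale. Not every gene named for S1 did the same in whole kidney. Slc22a6, higher in S1, averaged 288 CPM after nephrectomy and 350 CPM after sham surgery in whole kidney. Sult1a1, lower in S1, averaged 24.1 and 24.0 CPM there. Of the mitosis list, 24 of 44 members rose in whole kidney, of the cholesterol list 9 of 28, and of the clock list 4 rose and 6 fell among 19. Leaving out nephrectomy library 1, 2, 3 or 4 of whole kidney left 49, 142, 33 or 49 genes, and leaving out sham library 1, 2, 3 or 4 left 568, 130, 171 or 41.

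Of the whole kidney genes that rose, 182 were tested in S1, and their median S1 log2 fold change at 72 h was 0.85, against -0.00 over all genes tested. In S1, 152 of them (83.5%) had a log2 fold change above 0, and in 48 (26.4%) every nephrectomy library lay above every sham library, where 2.04% of all genes did. Of the 81 that fell in whole kidney, the S1 median was -0.27, 63 (77.8%) were below 0, and in 9 (11.1%) every nephrectomy library lay below every sham library, against 1.46% of all genes. In 2 of the 81 (2.47%), Cdkn1b among them, every S1 nephrectomy library lay above every sham library, against 2.04% of all genes. At 24 and 48 h the S1 medians of the genes that rose in whole kidney at 72 h were 0.40 and 0.49. Some genes that fell in whole kidney showed no such difference in S1: Slc13a1 was at -1.47 ± 0.30 in whole kidney and at 0.02 ± 0.35 in S1. S1 tubules are part of whole kidney, and the labels do not say which libraries share a rat, so the 2 tissues are not independent.

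**Figure D5:**
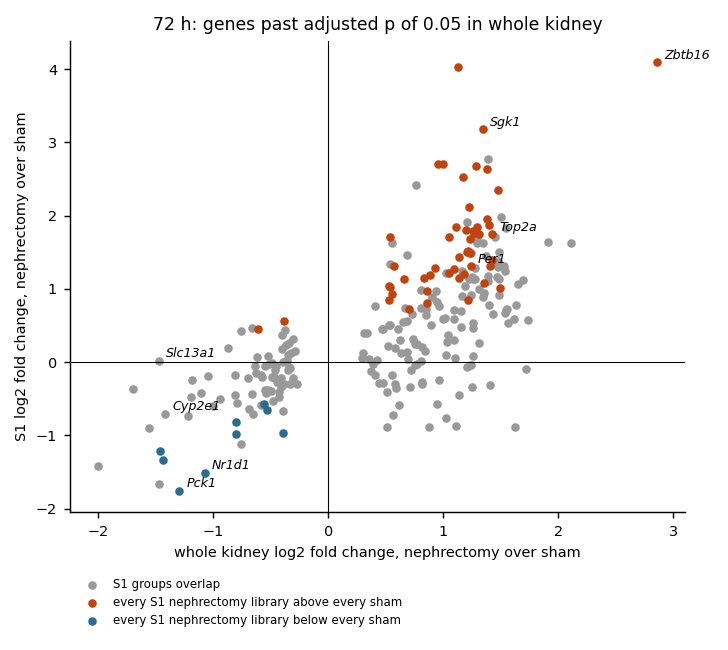
Each point is 1 of 263 genes past the whole kidney test at 72 h and tested in S1, with the log2 fold change of nephrectomy over sham in whole kidney on the x axis and in S1 on the y axis. Orange marks genes with every S1 nephrectomy library above every sham library and blue those with every one below.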

How the data were processed

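RNA of S1 tubules and glomeruli was amplified with the NuGEN Ovation RNA-seq V2 system and sequenced single end, and whole kidney was prepared with TruSeq Stranded kits and sequenced paired end, per the labels' protocols. The submitters' processing notes name the tools STAR 2.4.0.1, Trimmomatic 0.32, HTSeq and SAMtools. Genome build, annotation and strand setting: not given in the sources used here. The deposited values are raw counts per gene and, for levels per length, RPKM computed by the authors. The 5 HTSeq summary entries name no gene and were kept out of library sizes.

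Counts were tested with edgeR 4.0.16 (quasi-likelihood F test, TMM, filterByExpr minimum count 10, Benjamini-Hochberg threshold 0.05) in R 4.3.3, and checked on simulated counts. Alternatives used DESeq2 1.42.0, limma 3.58.1 (voom, and trend on log2(RPKM + 1) or log2(RPKM + 0.1)), other filters, scalings and libraries left out. S1 and glomeruli shared one table, and whole kidney was fitted on its own. CPM are on the scale of the fit named beside them. The SE of a log2 fold change was its size over the square root of the F statistic. Precision rests mainly on the spread between libraries, a biological coefficient of variation of 0.748 in S1 and 0.150 in whole kidney.

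Genes named were those past the threshold, those with the smallest p on each side up to 8 (at least 5 CPM on average), up to 4 of each list with the smallest p, and fixed markers, unless said otherwise. Some genes the rule names are not reported here. The members and gene lists were chosen with earlier results of these data known. In the table, 4708 genes share a symbol with another. Same-numbered nephrectomy and sham libraries did not deviate together (correlations 0.04, -0.04 and 0.03), so the numbers were not taken to pair them.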

Additional observations from a re-analysis of the deposited data

Results flagged for a closer look

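Among 61 sham groups of 4 S1 libraries examined for a library far from the rest, 4 had one, and chance gives about 1 in 20. Sham library 1 stood apart with 83.6 CPM of Slc12a3 and 6.19 CPM of Kcnj1, both distal nephron genes. Sham library 2 stood apart with 4.96 CPM of Top2a and 2.72 CPM of Myc, below the other sham libraries.

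The surgery effect at 72 h exceeded that at 48 h past the threshold for 5 genes, on the log2 scale by 4.80 for Sgk1, 3.25 for Plk3, 3.41 for Per1, 2.38 for Sh3rf1 and 8.04 for Zbtb16. At 48 h the sham libraries were the higher group by mean for each of them, and each difference joins that to a positive effect at 72 h. The 48 h labels and the hour of dissection, which the labels do not give, were not tested as a source of the direction at 48 h.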

How the results depend on the processing

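Sgk1 was the 1 gene past the threshold in every leave-one-out fit of the 7 libraries (log2 fold change 2.96 to 3.36). It lost the call with nephrectomy library 2 put back (adjusted p 1.00) and in limma on log2(RPKM + 1) (0.365) or log2(RPKM + 0.1) (0.25). The count in S1 at 72 h was 0 in each of these 3 fits, 11 with DESeq2, 2 with library totals alone, 12 with no filter on low counts, 2 with the share of reads in genes as a covariate and 5 with the replicate block. The count of differences between 72 and 48 h was 1 with the libraries put back and 12 with DESeq2. The S1 and glomerulus effects differed for 2 genes with DESeq2 and for 0 to 1 on leaving out libraries. In whole kidney the count was 851 with DESeq2, 450 with the replicate block and 33 to 568 on leaving out libraries. An added alternative without nephrectomy library 3 and sham library 2, chosen after seeing the data, gave 1 gene in S1. The cause of these changes was not tested.

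Several genes that did not pass changed sign (log2 fold change). With nephrectomy library 2 put back, Anxa1 was at 0.42, Nphs1 at 0.38, Lrp2 at -0.075, Slc5a2 at -0.18 and Slc13a1 at -0.17. With the replicate block, Cyp2e1 was at 0.065, Slc12a3 at 0.17, Havcr1 at -0.19 and Igf1 at -0.36. With voom, Lrp2 was at -0.0035, Igf1 at -0.66 and Slc13a1 at -0.14. Igf1 was at -0.062 on log2(RPKM + 1), -0.33 on log2(RPKM + 0.1) and -0.17 with totals alone. Slc13a1 was at -0.010 with 22 libraries, -0.018 with DESeq2 and with RLE, -0.019 with a minimum count of 50, and -0.063 with the covariate. In the added alternative Cyp2e1 was at 0.14 and Igf1 at -0.42. Over leave-one-out fits the ranges were -0.037 to 1.57 for Creld2, -0.0062 to 1.29 for Pdia4, -1.16 to 0.086 for Cyp2e1, -2.20 to 1.46 for Slc12a3, -0.61 to 2.04 for Havcr1, -0.36 to 0.016 for Ccnd1, -0.28 to 0.36 for Lrp2, -0.67 to 0.17 for Myc, -0.15 to 0.50 for Slc5a2, -0.49 to 0.65 for Igf1 and -0.34 to 0.22 for Slc13a1. Genes near 1 CPM rest on few reads in the shallowest library (13.12 M). Depth is not the only limit, as nephrectomy library 3 and sham library 2 were deep and had the fewest genes detected.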
